A study of Mus musculus with 8 samples.

Results

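Oxidative phosphorylation from complex III to the ATP synthase is described here through 33 nuclear genes of the mouse left ventricle: the subunits of complex III, the electron carrier cytochrome c, 6 subunits of complex IV, and the genes named for the ATP synthase (complex V). They are the protein-coding genes whose symbol starts with Uqcr or Atp5, or is Cyc1, Cycs, Cox5a, Cox5b, Cox6b1, Cox6c, Cox7b or Cox7c, and whose value was at least 1 in at least 2 libraries. All 33 genes with such a name passed that minimum, among 16432 genes that did. The 6 complex IV genes encode subunits that surround the catalytic centre. The centre itself is encoded by mt-Co1, mt-Co2 and mt-Co3 in mitochondrial DNA, and these are not among the 33. Atp5s and Atp5sl bear the name without encoding structural subunits of the enzyme, and are kept apart below.

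The RNA came from left ventricles of male C57BL/6N mice that were 8 weeks old at the start, and polyadenylated RNA was sequenced 4 weeks after surgery. Their surgery was either a sham procedure or TAC, the constriction of the transverse aorta, which raises the pressure against which the left ventricle pumps. They ate either SFA, a low fat diet, or SFA-EAA, in which free essential amino acids stood in for 93.5% of the casein. Groups are called by surgery and diet, such as TAC SFA-EAA, and each of the 4 held 2 libraries, so every group shares strain, sex and starting age, and no other diet is analysed here. Whether a group's libraries are separate animals is not in the labels, and p-values therefore measure the spread between these samples, which may be technical. In RNA from whole tissue, fewer cells of a type and less RNA per cell cannot be told apart.

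Complex III takes electrons from ubiquinol and hands them to cytochrome c, a small soluble protein that carries them to complex IV, where they reduce oxygen to water, and both complexes move protons out of the matrix. The ATP synthase lets the protons return through a ring of c subunits in the inner membrane. The turning ring drives a central stalk inside the catalytic F1 head, which makes ATP, while a peripheral stalk keeps the head from turning along. Heart muscle makes most of its ATP in this way, and its mitochondria fill a large share of each cell.

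Some libraries stood apart before any comparison. Values are the authors' normalised read counts, and those of a library summed to between 5136440 and 6298740, of which mitochondrially encoded genes held 22.1% to 39.5%. In all 4 SFA libraries and TAC SFA-EAA replicate 1, values deviated upward with the GC content of the transcript (Spearman rho 0.37 to 0.58 across 8032 genes, which are not independent replicates), while they deviated downward in TAC SFA-EAA replicate 2 (-0.78) and in the pair from sham hearts on that diet (-0.66 and -0.45). Diet and base composition thus moved together in all but 1 library, and each comparison below was also made after removing that trend from each library (GC-corrected). Values also deviated with transcript length, by a Spearman rho of -0.13 and -0.16 in the sham SFA libraries, 0.054 and 0.18 in TAC SFA, -0.050 and -0.073 in sham SFA-EAA, and -0.20 and 0.16 in TAC SFA-EAA. Myl7, the atrial myosin light chain, reached 621 in replicate 1 of sham SFA and 322 in replicate 2 of TAC SFA, while the 6 libraries left ranged from 1.28 to 43.0. All 10 cardiomyocyte markers were present, with summed values of 344440 to 455900.

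Averaged over the 8 libraries and divided by transcript length, the most abundant of the 33 was Atp5b, the catalytic beta subunit of F1, at 15685 per kilobase. Atp5g3, which encodes the c subunit, followed at 11334 per kilobase, Atp5a1, the alpha subunit, at 10355, and Cox6c of complex IV at 9948. The complex III genes lay lower per kilobase, from 3293 for Uqcrc1 to 7920.5 for Uqcrh. Cycs, which encodes cytochrome c, stood at 1012 per kilobase, and Atp5l at 1105. Atp5s and Atp5sl were far below every structural subunit, at 82.3 and 76.1 per kilobase. These levels rest on 1 transcript per gene. For Atp5g1 the transcript used gives 1096 per kilobase and the shortest gives 8569.5, and for Uqcrq the transcript used gives 5004 and the longest 1332.5, under the complex III range above. For Atp5g2 the transcript used gives 934 per kilobase and the longest 564. The places of these 3 in the order are not settled by these data.

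**Figure D1:**
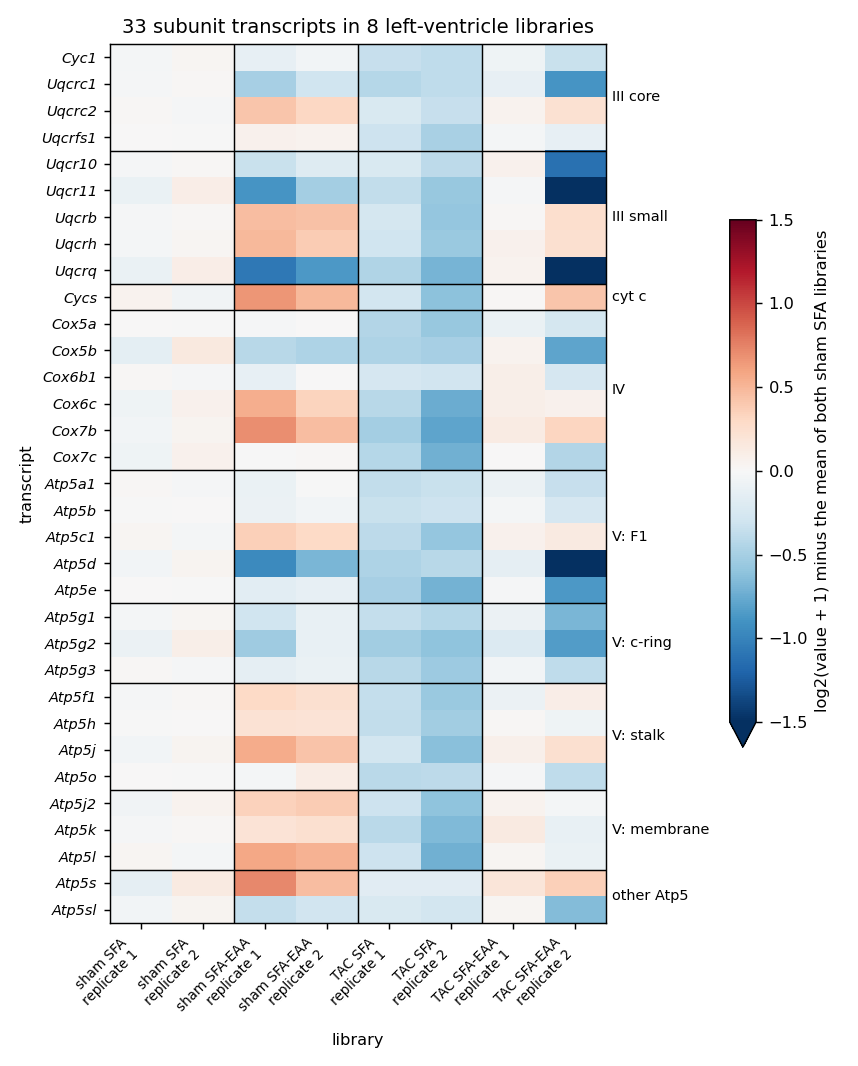
Each cell is the log2(value + 1) of 1 transcript (vertical axis, grouped by role) in 1 library (horizontal axis) minus the mean of both sham SFA libraries. Both TAC SFA columns are blue for all 33 transcripts, while each sham SFA-EAA and TAC SFA-EAA column holds both red and blue. The 3 values below -1.5 are drawn in the darkest blue.

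Taken as 1 sum, the 33 transcripts made up 4.43% and 4.41% of the nuclear-encoded values in the sham SFA libraries, and 3.60% and 3.32% in TAC SFA. The sham SFA-EAA libraries stood at 4.75% and 4.71%, and the TAC SFA-EAA libraries at 4.32% and 4.05%. The sum was thus lowest in both TAC SFA libraries and highest in both sham SFA-EAA libraries, with no overlap between any of the 4 groups. Against the mean of sham SFA, the summed value was 75.5% in TAC SFA, 91.8% in TAC SFA-EAA and 103% in sham SFA-EAA. By role, TAC SFA held 70.4% of the sham SFA sum for the complex IV subunits, 73.6% for the small complex III subunits, 74.0% for the peripheral stalk and 77.8% for both the F1 head and the catalytic and core subunits of complex III. The roles parted more in the TAC SFA-EAA means, from 82.9% for the c-ring to 117% for cytochrome c. The peripheral stalk stood at 99.0% and the small membrane subunits of the ATP synthase at 101%. Most of that spread lay in replicate 2, which ran from 70.4% for the c-ring to 134% for cytochrome c. In replicate 1 the roles lay between 95.5% for the c-ring and 106% for the small membrane subunits. No test was made of these sums.

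**Figure D2:**
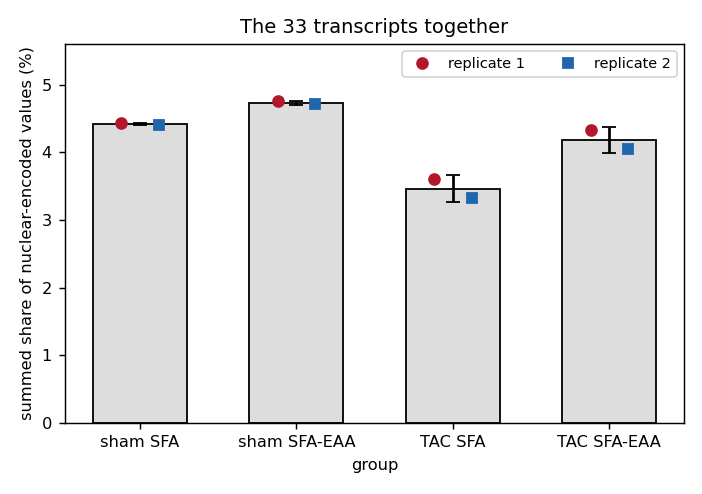
Bars give the mean and error bars the SD (n = 2 libraries) of the summed share of the 33 transcripts in all nuclear-encoded values (vertical axis, percent), by group (horizontal axis), with points for single libraries. Both TAC SFA points, 3.60% and 3.32%, lie under every other point.

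The first comparison asked what pressure overload does to these transcripts under the SFA diet. All 33 were lower in both TAC SFA libraries than in both sham SFA libraries, where 23.1% of all genes tested were lower in this way. The median log2 fold change was -0.45 against 0.01 over all genes, and single members ranged from -0.65 for Cox7b to -0.17 for Atp5s. By role the medians of the structural subunits lay between -0.54 for complex IV and -0.38 for the catalytic and core subunits of complex III. None of the 33 passed limma's threshold after adjustment over all genes, which 1.25% of all genes did (0.414% in the lower direction). At an unadjusted p under 0.05, 22 of 33 were lower, against 6.37% of all genes. After the GC correction 18 of 33 fell, against 2.39% of all genes, with a median of -0.43 and 27 of 33 lower at an unadjusted p under 0.05 (8.08%). With the correction made on coding GC instead, an alternative added after the data had been seen, 6 fell (1.55% of all genes): Cox7b, Cox5a, Atp5k, Atp5c1, Atp5f1 and Cox6c. With a correction for GC and transcript length together 5 fell (2.32% of all genes), Cox7b, Cycs, Atp5c1, Atp5f1 and Cox6c, and the median was -0.28 against 0.05 over all genes. The length trend was negative in both sham SFA libraries and positive in both TAC SFA libraries, and its part in the difference was not tested.

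The GC-corrected count of 18 varied with the libraries used, and so did the share of all genes called lower. Leaving out either TAC SFA-EAA library raised the count, and every other omission lowered it. It was 1 without sham SFA replicate 1 (0.602% of all genes), 0 without sham SFA replicate 2 (0.365%), 1 without TAC SFA replicate 2 (0.724%), 7 without either sham SFA-EAA library (1.58%) and 0 without both libraries high in Myl7 (0.0791%). In a fit that leaves a group with 1 library, that library is assumed to vary like the other groups. All 33 log2 fold changes stayed negative in every one of these fits.

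The 6 complex IV subunits had the lowest median, -0.54. Cox7b, a small membrane subunit (ENSMUSG00000031231, GRCm38 chromosome X, 106015700 to 106022450), stood at 4121 and 4363 in sham SFA, 6866 and 5838 in sham SFA-EAA, 2980.2 and 2444 in TAC SFA and 4609 and 5309 in TAC SFA-EAA. Its TAC SFA libraries were the lowest of the 8 and its sham SFA-EAA libraries the highest. The difference under SFA was -0.65 on the log2 scale (SE 0.14, limma adjusted p = 0.0743), the smallest p of the 33, and its GC-corrected adjusted p was 0.00488. Cox5a, a matrix-side subunit that regulates the complex (ENSMUSG00000000088, chromosome 9, 57521274 to 57532426), stood at 5095 and 5035 in sham SFA, 4999.9 and 5081 in sham SFA-EAA, 3739 and 3417 in TAC SFA and 4719 and 4234 in TAC SFA-EAA. The sham libraries of both diets lay within a narrow band and both TAC SFA libraries lay far under it, a difference of -0.50 (SE 0.11, limma adjusted p = 0.08, 0.0145 GC-corrected). Cox6c (ENSMUSG00000014313, chromosome 15, 35925886 to 35938246) stood at 4672 and 5132 in sham SFA, 7136 and 6165 in sham SFA-EAA, 3658 and 2914 in TAC SFA and 5222 and 5133 in TAC SFA-EAA, with TAC SFA again lowest and a difference of -0.58 (SE 0.14, limma adjusted p = 0.0994, 0.0202 GC-corrected). Cox7b, Cox5a and Cox6c thus missed the threshold as deposited and passed it with the correction on transcript or on coding GC, and Cox5a did not pass with GC and length together.

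Cox7c, another small membrane subunit, had a difference of -0.57 (limma adjusted p = 0.146). Cox5b, the zinc-binding matrix subunit, stood at 2952 and 3591 in sham SFA, 2434 and 2357 in sham SFA-EAA, 2370 and 2304 in TAC SFA and 3376 and 1885 in TAC SFA-EAA. Both TAC SFA libraries lay under both sham SFA libraries, yet close to both sham SFA-EAA libraries, and the TAC SFA-EAA libraries spread more widely than any other pair. Its difference under SFA was -0.48 (SE 0.23, limma adjusted p = 0.424). Cox6b1, which lies on the intermembrane side, had the smallest difference of the 6, -0.27 (limma adjusted p = 0.428).

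The 4 catalytic and core subunits of complex III had differences of -0.40 to -0.29 under SFA. Uqcrfs1, the Rieske iron-sulfur protein (ENSMUSG00000038462, chromosome 13, 30540308 to 30545362), stood at 5219 and 5207 in sham SFA, 5468 and 5418 in sham SFA-EAA, 4200.3 and 3718 in TAC SFA and 5107 and 4793 in TAC SFA-EAA. Its sham libraries differed little between the diets, and both TAC SFA libraries were the lowest, at -0.40 (SE 0.12, limma adjusted p = 0.154, 0.0427 GC-corrected). Cyc1, cytochrome c1, which passes the electron on to cytochrome c, stood at 5524 and 5723 in sham SFA, 5173 and 5449 in sham SFA-EAA, 4436 and 4307 in TAC SFA and 5393 and 4444 in TAC SFA-EAA, a difference of -0.36 under SFA (limma adjusted p = 0.241). The core proteins Uqcrc1 and Uqcrc2 parted by diet. Uqcrc1 stood at 6602 and 6819.8 in sham SFA, 4764 and 5433 in sham SFA-EAA, 4992 and 5147 in TAC SFA and 6164 and 3624 in TAC SFA-EAA, so its sham SFA-EAA libraries already lay near the TAC SFA level, and TAC SFA-EAA held both a high and the lowest library. Its difference under SFA was -0.40 (SE 0.21, limma adjusted p = 0.476, 0.033 GC-corrected). Uqcrc2 stood at 6391 and 6236 in sham SFA, 8421 and 7848 in sham SFA-EAA, 5367 and 4982 in TAC SFA and 6569.9 and 7368 in TAC SFA-EAA, highest in sham SFA-EAA, with the smallest difference of the 4 under SFA, -0.29 (limma adjusted p = 0.347). Of the 4 genes, Uqcrfs1 and Uqcrc1 fell after the GC correction.

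The 5 small complex III subunits showed 2 patterns. Uqcrh, the hinge protein beside cytochrome c1, stood at 4021 and 4198 in sham SFA, 5760.4 and 5366 in sham SFA-EAA, 3352 and 2793 in TAC SFA and 4308 and 4860.1 in TAC SFA-EAA. Uqcrb, which helps form the ubiquinone pocket, stood at 2676 and 2741 in sham SFA, 3720.4 and 3675 in sham SFA-EAA, 2256 and 1818 in TAC SFA and 2736 and 3218 in TAC SFA-EAA. Both were highest in sham SFA-EAA and lowest in TAC SFA, with differences under SFA of -0.43 and -0.42 (limma adjusted p = 0.18 and 0.207), and both fell after the GC correction (adjusted p = 0.0498 and 0.034). Uqcrq, Uqcr10 and Uqcr11 were lower in sham SFA-EAA than in sham SFA, and each had its lowest value in TAC SFA-EAA replicate 2. Uqcrq stood at 2648 and 3063 in sham SFA, 1353 and 1564 in sham SFA-EAA, 2085 and 1757 in TAC SFA and 2952 and 791 in TAC SFA-EAA, a spread between the TAC SFA-EAA libraries that exceeds every group difference. Its difference under SFA was -0.57 with an SE of 0.47 (limma adjusted p = 0.693). For Uqcr10 and Uqcr11 the differences were -0.31 (SE 0.30) and -0.47 (SE 0.39), also too imprecise to call (limma adjusted p = 0.738 and 0.703).

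Cytochrome c itself, encoded by Cycs (ENSMUSG00000063694, chromosome 6, 50562563 to 50566538), stood at 2975 and 2770 in sham SFA, 4555 and 4009 in sham SFA-EAA, 2368 and 1869 in TAC SFA and 2905 and 3845 in TAC SFA-EAA. The sham SFA-EAA libraries lay well above sham SFA and the TAC SFA libraries below it, with no overlap. The difference under SFA was -0.45 (SE 0.17, limma adjusted p = 0.281), and it fell after the GC correction (adjusted p = 0.0279). Of the 50-base stretches of the Cycs transcript, 28.5% recur in transcripts of 76 other annotated genes, so its value may hold reads of such copies.

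In the ATP synthase, the F1 head and central stalk had differences of -0.60 to -0.32 under SFA. The head is built from alpha and beta subunits, Atp5a1 and Atp5b, around the gamma subunit Atp5c1, with delta (Atp5d) and epsilon (Atp5e) at the foot of the central stalk. Atp5b (ENSMUSG00000025393, chromosome 10, 128083273 to 128090391) stood at 32678 and 32891 in sham SFA, 30793 and 31943 in sham SFA-EAA, 26095 and 26537 in TAC SFA and 31998 and 27482 in TAC SFA-EAA. Atp5a1 stood at 28664 and 28004 in sham SFA, 26522 and 28236 in sham SFA-EAA, 21872 and 22427 in TAC SFA and 26675 and 22296 in TAC SFA-EAA. For both, the TAC SFA libraries lay below all 4 sham libraries, with differences under SFA of -0.32 and -0.36 (limma adjusted p = 0.438 and 0.374, 0.195 and 0.148 GC-corrected). Atp5c1 (ENSMUSG00000025781, chromosome 2, 10056016 to 10080510) stood at 7955 and 7624 in sham SFA, 9942 and 9602 in sham SFA-EAA, 5942 and 5209 in TAC SFA and 8165 and 8581 in TAC SFA-EAA. It was highest in sham SFA-EAA and lowest in TAC SFA, -0.49 under SFA (SE 0.12, limma adjusted p = 0.109), and fell after the GC correction (adjusted p = 0.015). Atp5e stood at 2264 and 2259 in sham SFA, 2029.9 and 2075 in sham SFA-EAA, 1604 and 1384 in TAC SFA and 2227 and 1249 in TAC SFA-EAA, with a difference of -0.60 under SFA (SE 0.22, limma adjusted p = 0.281, 0.04998 GC-corrected). Atp5d stood at 3198 and 3393 in sham SFA, 1695 and 2052 in sham SFA-EAA, 2393 and 2467 in TAC SFA and 2992 and 1130.5 in TAC SFA-EAA, where the spread inside TAC SFA-EAA exceeds the step of TAC under SFA, -0.44 (SE 0.35, limma adjusted p = 0.686).

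Atp5g1, Atp5g2 and Atp5g3 encode c subunits that are identical as mature proteins and differ in the import sequence that is removed. The end of their coding sequences, from the codon at which they align, is shown because reads from close copies can be counted to the wrong gene. The first 90 of the last 228 coding bases (GENCODE M21), stop codon included, read as follows, with capitals at positions where the 3 genes are not all alike.
Atp5g1: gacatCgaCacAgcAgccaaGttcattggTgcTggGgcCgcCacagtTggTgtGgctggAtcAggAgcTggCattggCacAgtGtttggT
Atp5g2: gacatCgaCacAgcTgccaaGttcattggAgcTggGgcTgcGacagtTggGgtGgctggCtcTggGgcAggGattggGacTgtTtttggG
Atp5g3: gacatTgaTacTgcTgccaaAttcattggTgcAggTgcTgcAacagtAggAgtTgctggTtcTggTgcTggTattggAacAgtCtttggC
Within these 90 bases 68 are alike in all 3. Over all 228, Atp5g1 and Atp5g2 are 85.1% identical with a longest shared run of 21 bases, Atp5g1 and Atp5g3 79.8% with 11, and Atp5g2 and Atp5g3 78.5% with 8. Every 50-base stretch of the Atp5g2 transcript (100%) recurs in a transcript of another gene, and its low value is uncertain for that reason.

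Atp5g3 (ENSMUSG00000018770, chromosome 2, 73908447 to 73911326) carried most of the c-ring transcripts and stood at 9322 and 9159 in sham SFA, 8387 and 8607 in sham SFA-EAA, 6916 and 6322 in TAC SFA and 8951 and 7078 in TAC SFA-EAA. Its sham libraries were close under both diets and both TAC SFA libraries lowest, -0.48 under SFA (SE 0.14, limma adjusted p = 0.16), and it fell after the GC correction (adjusted p = 0.0401). Atp5g1 stood at 5869.9 and 6114 in sham SFA, 4872 and 5527 in sham SFA-EAA, 4658 and 4458 in TAC SFA and 5644 and 3717 in TAC SFA-EAA, with a difference of -0.39 (limma adjusted p = 0.401, 0.313 GC-corrected on the base composition of its long transcript). Atp5g2 stood at 486 and 546 in sham SFA, 357 and 476 in sham SFA-EAA, 359 and 339 in TAC SFA and 446 and 288 in TAC SFA-EAA, -0.56 under SFA (limma adjusted p = 0.286, 0.0219 GC-corrected). The lowest library of Atp5g1 and Atp5g2 was TAC SFA-EAA replicate 2, and that of Atp5g3 TAC SFA replicate 2. The 3 genes thus had steps of like size in TAC SFA, and no copy was higher there than in sham SFA.

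The 4 peripheral stalk subunits had differences of -0.46 to -0.40 under SFA. Atp5o, which joins the stalk to the top of the head, stood at 5098 and 5049 in sham SFA, 4991 and 5466 in sham SFA-EAA, 3826 and 3879 in TAC SFA and 5027 and 3898 in TAC SFA-EAA. Both TAC SFA libraries were lowest, though TAC SFA-EAA replicate 2 was almost level with them, and the difference under SFA was -0.40 (SE 0.14, limma adjusted p = 0.245, 0.034 GC-corrected). Atp5h, the d subunit, stood at 4961 and 5035 in sham SFA, 5802 and 5770 in sham SFA-EAA, 3873 and 3470.2 in TAC SFA and 5052 and 4773 in TAC SFA-EAA, -0.45 under SFA (SE 0.11, limma adjusted p = 0.109, 0.0191 GC-corrected). Atp5j, coupling factor 6, stood at 3847 and 4069 in sham SFA, 5819 and 5343 in sham SFA-EAA, 3273 and 2557 in TAC SFA and 4186 and 4665 in TAC SFA-EAA. Atp5f1, the b subunit, stood at 6387 and 6579.5 in sham SFA, 7986 and 7683 in sham SFA-EAA, 5058 and 4407 in TAC SFA and 6096 and 6929 in TAC SFA-EAA. Both were highest in sham SFA-EAA, and their differences under SFA were -0.45 and -0.46 (limma adjusted p = 0.191 and 0.141). Atp5o, Atp5h and Atp5f1 fell after the GC correction, and Atp5j did not pass (adjusted p = 0.234).

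The 3 small membrane subunits Atp5j2, Atp5k and Atp5l, also known as f, e and g, help pair ATP synthases along the folds of the inner membrane. Atp5k (ENSMUSG00000050856, chromosome 5, 108433244 to 108434448) stood at 2256 and 2325 in sham SFA, 2644 and 2705 in sham SFA-EAA, 1736 and 1445 in TAC SFA and 2515 and 2112 in TAC SFA-EAA, with both TAC SFA libraries lowest and a difference of -0.53 (SE 0.13, limma adjusted p = 0.102, 0.0157 GC-corrected). Atp5l stood at 591 and 568 in sham SFA, 864 and 834 in sham SFA-EAA, 468 and 351 in TAC SFA and 589 and 542 in TAC SFA-EAA. Both TAC groups lay under their own sham group without overlap, -0.51 under SFA and -0.59 under SFA-EAA (limma adjusted p = 0.145 and 0.337). Of its 50-base stretches 84.8% recur in 14 other genes. Atp5j2 stood at 3166 and 3422 in sham SFA, 4196 and 4302 in sham SFA-EAA, 2658 and 2165 in TAC SFA and 3428 and 3225 in TAC SFA-EAA, -0.46 under SFA (limma adjusted p = 0.142). All 3 fell after the GC correction (adjusted p = 0.0375, 0.0157 and 0.0483 for Atp5j2, Atp5k and Atp5l). Usmg5 and 2010107E04Rik, which encode further small subunits under names the rule does not take, had differences of -0.56 and -0.34.

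Atp5s and Atp5sl, the genes that bear the name without encoding structural subunits, differed less. Atp5s stood at 96.2 and 117 in sham SFA, 175 and 147 in sham SFA-EAA, 93.9 and 93.8 in TAC SFA and 120.1 and 136 in TAC SFA-EAA. Atp5sl stood at 203 and 217 in sham SFA, 163 and 172 in sham SFA-EAA, 178 and 173 in TAC SFA and 213 and 133 in TAC SFA-EAA. Their differences under SFA, -0.17 (SE 0.17) and -0.25 (SE 0.21), were the smallest of the 33 and smaller than the subunits' median, though a test of that difference was not made (limma adjusted p = 0.75 and 0.694).

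**Figure D3:**
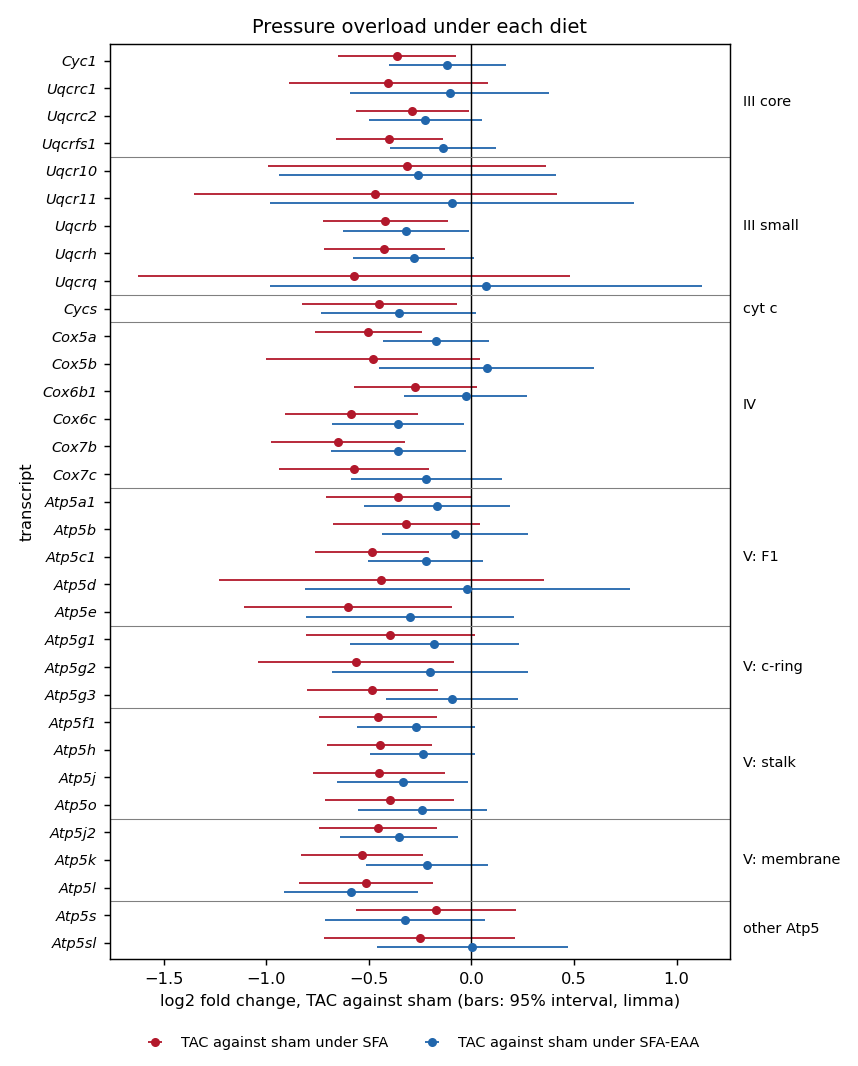
Points give the log2 fold change of TAC against sham (horizontal axis) for each of the 33 transcripts (vertical axis), in red under SFA and in blue under SFA-EAA, with bars for limma's 95% interval without adjustment. All red points lie left of 0, from -0.65 to -0.17, and 30 of the 33 blue points do.

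The second comparison asked the same under SFA-EAA. There 30 of 33 differences were negative, with a median of -0.22 against 0.00 over all genes. The lowest were Atp5l at -0.59 (SE 0.14, limma adjusted p = 0.337), Cox6c at -0.36 and Cox7b at -0.36, and the highest was Cox5b at 0.07. For 16 of 33, both TAC libraries lay below both sham libraries, as they did for 18.0% of all genes, and for 0 of 33 they lay above (18.5% of all genes). These 16 include Cycs, Cox5a, Uqcrfs1, 3 of the 4 peripheral stalk subunits and all 3 small membrane subunits, and none of the c-ring genes. None of the 33 passed limma's threshold, nor did any gene in that direction (0.0%), and 6 were lower at an unadjusted p under 0.05, against 3.71% of all genes. After the GC correction 0 passed as well (0.0609% of all genes did in that direction), with 14 lower at an unadjusted p under 0.05 (5.29%). The 2 TAC SFA-EAA libraries parted: replicate 2 lay below both sham SFA-EAA libraries for all 33 (38.7% of all genes), while replicate 1 lay below both for 16 of 33 (38.3%) and above both for 12 (39.5%), and without replicate 2 the median was -0.055.

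The third comparison set SFA-EAA against SFA in sham hearts, and here the 33 did not move as 1 body. The differences were negative for 16 and positive for 17, with a median of 0.01. The lowest were Uqcrq at -0.97 (SE 0.47), Atp5d at -0.82 (SE 0.35) and Uqcr11 at -0.70 (SE 0.39), and the highest were Atp5s at 0.59 (SE 0.17), Cox7b at 0.58 (SE 0.14) and Cycs at 0.57 (SE 0.17). The libraries of the diets did not overlap for 28 of 33, with 13 lower and 15 higher in sham SFA-EAA, against 27.6% of all genes in each direction. Subunits of 1 complex went both ways, as Uqcrb, Uqcrh and Uqcrc2 lay higher in sham SFA-EAA and Uqcrq, Uqcr10, Uqcr11 and Uqcrc1 lower. Limma called 0 of the 33 and 0 of all genes (0.0%), with Cox7b, Atp5l and Atp5j at the smallest p of the 33 (adjusted p = 0.267, 0.267 and 0.267). At an unadjusted p under 0.05, 11 were higher (6.12% of all genes) and 1, Atp5d, lower (8.71%). After the GC correction limma again called 0 of the 33 (0.0426% of all genes), with 1 lower (5.46%) and 12 higher (5.12%) at an unadjusted p under 0.05.

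Which way a subunit differed followed the base composition of its gene. The diet difference in sham correlated with the GC content of the coding sequence across the 33 (Pearson r -0.86, Spearman rho -0.86, over genes that share the same 4 libraries). Of the 13 members under 50% coding GC, 12 were higher in sham SFA-EAA, with a median of 0.44, while 15 of the 20 others were lower, with a median of -0.11. Coding sequences from both ends are shown, since these letters are the property that moves with the values. They are the first 90 bases from the start codon (GENCODE M21), with every G and C in capitals.
Uqcrb: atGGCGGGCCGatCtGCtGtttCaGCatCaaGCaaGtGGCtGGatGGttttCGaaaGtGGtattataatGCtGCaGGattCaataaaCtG
Cycs: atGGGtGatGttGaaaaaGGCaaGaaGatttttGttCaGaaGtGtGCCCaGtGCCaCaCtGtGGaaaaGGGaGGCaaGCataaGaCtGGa
Uqcr11: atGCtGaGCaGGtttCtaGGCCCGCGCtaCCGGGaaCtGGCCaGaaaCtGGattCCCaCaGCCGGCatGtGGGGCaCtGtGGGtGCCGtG
Atp5d: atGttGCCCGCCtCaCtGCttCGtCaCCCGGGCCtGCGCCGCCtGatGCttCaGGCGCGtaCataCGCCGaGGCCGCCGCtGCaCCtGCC
Capitals make up 41 of the 90 bases in both Uqcrb and Cycs, which lay higher in sham SFA-EAA, 57 in Uqcr11 and 63 in Atp5d, which lay lower. Since libraries of the SFA-EAA groups stood apart in base composition over all genes, diet and that trend cannot be told apart for these members. Removing each library's trend with transcript GC reduced the SD of the 33 differences from 0.41 to 0.27, and the correlation with coding GC to -0.60.

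**Figure D4:**
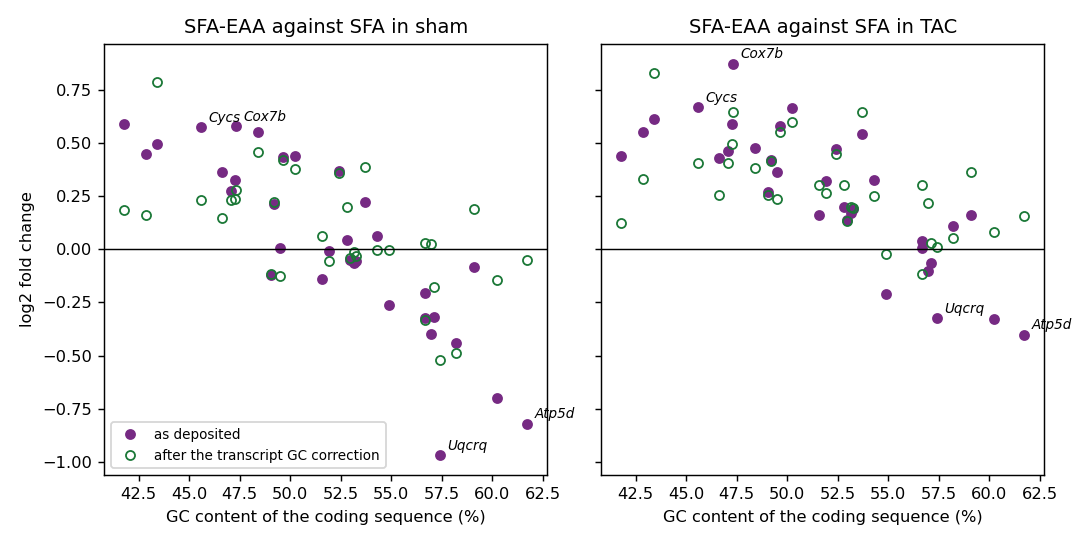
Log2 fold change of SFA-EAA against SFA (vertical axis) against the GC content of the coding sequence in percent (horizontal axis) for the 33 transcripts, in sham hearts (left) and in TAC hearts (right), as deposited (filled) and GC-corrected (open). The filled points descend with GC content in both panels, with Pearson r of -0.86 and -0.81, and in TAC hearts they lie higher, 27 of 33 above 0.

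The fourth comparison asked whether the diet altered these transcripts in hearts under pressure overload. The difference was positive for 27 of 33, with a median of 0.32 against -0.03 over all genes. Cox7b had the largest, 0.87 (SE 0.14, limma adjusted p = 0.0673), from 2712 ± 379 in TAC SFA to 4959 ± 495 in TAC SFA-EAA (SD, n = 2 libraries). Cycs followed at 0.67 (SE 0.17), Cox6c at 0.67 (SE 0.14, limma adjusted p = 0.124), and Atp5c1 stood at 0.59 (SE 0.12, limma adjusted p = 0.118). The lowest was Atp5d at -0.40 (SE 0.35). For 21 of 33 both TAC SFA-EAA libraries lay above both TAC SFA libraries, against 21.7% of all genes, and for 0 of 33 below (21.1%). These 21 include 4 of the 6 complex IV subunits, all 4 of the peripheral stalk, all 3 small membrane subunits and 3 of the 4 catalytic and core subunits of complex III.

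None of the 33 passed limma's threshold as deposited (0.0487% of all genes did), and 16 were higher at an unadjusted p under 0.05 (6.74% of all genes). After the GC correction 7 rose, against 0.955% of all genes: Atp5k (0.65, adjusted p = 0.0116), Cox7b (0.65, 0.0119), Atp5c1 (0.50, 0.0285), Uqcrh (0.55, 0.0287), Cox6c (0.60, 0.0351), Atp5j (0.83, 0.0412) and Atp5h (0.41, 0.0447). With GC and length corrected together 3 rose, Cox7b, Cycs and Atp5k (0.694% of all genes), 25 of 33 were positive and the median was 0.13 against -0.04 over all genes. Under the same assumption on a lone library, the 7 became 2 without any 1 of the 4 sham libraries (0.365% to 0.45% of all genes), 12 without TAC SFA replicate 1 (1.26%) and 0 without TAC SFA replicate 2 (0.0487%). They became 4 without TAC SFA-EAA replicate 1 (0.901%), 1 without TAC SFA-EAA replicate 2 (0.316%) and 0 without both libraries high in Myl7 (0.0122%). With the correction made on coding GC in place of transcript GC, Cox7b was the 1 member that passed (adjusted p = 0.0237, 0.31% of all genes). The value of Atp5j turns on this choice, as its transcript holds 56% GC and its coding sequence 43.4%, and on coding GC its difference was 0.37 (adjusted p = 0.165). As deposited and without TAC SFA-EAA replicate 1, limma called 13 of the 33, 8 higher (2.72% of all genes) and 5 lower (5.77%), and the median was 0.14.

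The TAC SFA-EAA libraries differ from each other in base composition, so each is also given alone. Replicate 1, whose GC trend was like that of the SFA libraries, lay above both TAC SFA libraries for all 33 members, which 36.8% of all genes did. Its length trend was the most negative of the 8, -0.20 against 0.054 and 0.18 in TAC SFA. With GC and length corrected together every member still lay above both, some barely. Atp5g2 then stood at log2 8.561 against 8.491 and 8.559 in TAC SFA, and as deposited at 8.805 against 8.490 and 8.410. Against both sham SFA libraries it lay higher for 12 and lower for 13 of the 33 (36.7% and 32.9% of all genes). Replicate 2, with the opposite GC trend, lay above both TAC SFA libraries for 21 and below both for 10 (38.3% and 39.8%). The 10 are held by GC-rich genes such as Uqcrq, Uqcr10, Uqcr11, Atp5d and Uqcrc1. Each of these readings rests on a single library and has no replicate check. The comparisons of TAC against sham under SFA and of the diets in TAC hearts share both TAC SFA libraries, so low values there enter both.

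Diet differences in sham and in TAC hearts come from separate libraries, and across the 33 they ran together (Pearson r 0.94, 0.87 GC-corrected), on a base composition that both share. Differences of TAC under SFA and under SFA-EAA, also from separate libraries, ran together far less (Pearson r 0.21, 0.32 GC-corrected), with 30 of 33 negative under both diets. The test of whether the TAC difference itself depended on diet is the interaction. It was positive, so the TAC difference was less negative under SFA-EAA, for 31 of 33, with a median of 0.24 against 0.00 over all genes. The exceptions were Atp5s at -0.15 and Atp5l at -0.07. The largest was Uqcrq at 0.64 with an SE of 0.66, and the smallest p belonged to Cox5a at 0.33 (95% interval -0.04 to 0.70, limma adjusted p = 0.878), followed by Atp5g3 at 0.39 and Atp5k at 0.32 (limma adjusted p = 0.884 and 0.909). Limma called 0 of the 33 and 0 of all genes (0.0%), as deposited and after the GC correction, with 0 of the 33 at an unadjusted p under 0.05 as deposited (2.56% of all genes in the positive direction) and 3 after the correction (3.67%). A difference between the diets in the TAC response of these genes is therefore not shown.

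Genes that work with the 33 lay lower in TAC SFA as well. All 37 complex I subunits were negative (median -0.43), and so were all 4 of complex II (median -0.41) and all 10 complex IV subunits with tissue isoforms or paralogs (median -0.46). As deposited limma called 1 gene of these 3 lists lower (0.414% of all genes), Cox7a1, the heart and muscle form of subunit 7a, which fell by 0.76 on the log2 scale. It stood at 3347 and 3392 in sham SFA, 3437 and 3922 in sham SFA-EAA, 2118 and 1871 in TAC SFA and 3059 and 2383 in TAC SFA-EAA (SE 0.14, limma adjusted p = 0.0478, 0.00136 GC-corrected). After the GC correction 15 of 37, 2 of 4 and 4 of 10 fell, against 2.39% of all genes. Of the 6 mitochondrially encoded subunits of complexes III, IV and V, 5 were negative (median -0.43) and 0 were called, with mt-Co1 at -0.39, mt-Cytb at -0.41 and mt-Atp6 at -0.53 (limma adjusted p = 0.771, 0.696 and 0.62). A polyadenylation-based library captures these RNAs unevenly, and their share of each library varied widely.

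Factors that assemble the complexes lay closer to 0. In TAC SFA, 5 of 6 factors for complex III were negative (median -0.27), 19 of 22 for complex IV (median -0.24) and all 4 of a list that joins complex V factors with its inhibitor (median -0.27). Limma called 0 genes of these 3 lists, with 2, 2 and 2 lower at an unadjusted p under 0.05 (6.37% of all genes). After the GC correction 1 gene of these 3 lists fell, where 2.39% of all genes did. It was Tmem70, which the c-ring needs for its assembly (-0.42, limma adjusted p = 0.0437). Atpif1, the inhibitor of the ATP synthase, was at -0.15 (limma adjusted p = 0.658), and Slc25a4, the heart form of the carrier that exchanges ATP for ADP, at -0.45 (limma adjusted p = 0.374). Of 13 transcriptional regulators of mitochondrial genes 11 were negative (median -0.18), with 0 called and 0 at an unadjusted p under 0.05. Ppargc1a, the coactivator that drives mitochondrial biogenesis, was at -0.11 (SE 0.20, limma adjusted p = 0.876), and Esrra, an estrogen-related receptor that binds many of these promoters, at -0.38 (SE 0.41, limma adjusted p = 0.775). In TAC hearts under SFA-EAA against SFA, complex I was positive for 29 of 37 (median 0.28) and all 6 mitochondrially encoded subunits were positive (median 0.73), with 0 called in either list as deposited and 10 and 0 higher after the GC correction (0.955% of all genes).

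Promoters were searched because the 33 lay lower together in TAC SFA. RefSeq (GRCm38.p6) gave the 250 bases before the start for 27 of the 33. The letters of the NRF1 motif, GCGCA, any base and GCGC, were, on either strand as for all motifs here, in 4 of 27 (14.8%, against 4.23% of 27025 genes), and those of the ETS motif that GABPA binds, CCGGAAG, in 7 (25.9% against 7.83%). The ERR motif AAGGTCA was in 2 (7.41% against 4.70%), the YY1 motif AAGATGG in 2 (7.41% against 5.18%), the CRE TGACGTCA in 2 (7.41% against 1.77%) and the SP1 motif GGGCGG in 6 (22.2% against 35.4%). The 27025 are all genes with such a RefSeq window, including genes that the filter left out. A comparison with expressed genes alone was not made. The following stretches hold no annotated exon of GENCODE M21 and show a promoter with an NRF1 match, one with an ERR match (TGACCTT, which reads AAGGTCA on the other strand), and that of Cox7b, which has no match to any of these motifs, with matches in capitals.
Atp5h, chr11:115419963-115420127, minus strand: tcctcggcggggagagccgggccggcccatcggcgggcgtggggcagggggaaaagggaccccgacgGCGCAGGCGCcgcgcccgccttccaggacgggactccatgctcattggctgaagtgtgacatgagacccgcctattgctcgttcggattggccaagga
Atp5g3, chr2:73911327-73911576, minus strand: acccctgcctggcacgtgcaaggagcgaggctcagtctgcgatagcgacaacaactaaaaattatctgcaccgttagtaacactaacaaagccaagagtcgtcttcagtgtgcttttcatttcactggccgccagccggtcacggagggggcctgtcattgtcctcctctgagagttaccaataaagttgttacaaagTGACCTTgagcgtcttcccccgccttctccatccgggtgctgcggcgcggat
Cox7b, chrX:106015450-106015699, plus strand: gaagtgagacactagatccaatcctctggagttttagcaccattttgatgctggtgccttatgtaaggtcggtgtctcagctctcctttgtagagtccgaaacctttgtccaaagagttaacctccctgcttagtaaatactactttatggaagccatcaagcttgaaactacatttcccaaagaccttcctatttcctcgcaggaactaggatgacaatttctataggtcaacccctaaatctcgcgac
Cox7b, with no match in this window, had the largest difference in TAC SFA, and Atp5h and Atp5g3 were near the median. The window of Atp5h also holds an ETS match, which lies outside the stretch shown. A match is a run of letters and says nothing of binding, and a window without one says only that the letters are not there.

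Markers of other cell types also differed between TAC and sham under SFA. The 8 fibroblast markers summed to 5144 to 5978 in sham SFA and 9014 to 13823 in TAC SFA, and all 8 were higher, 2 of them called against 0.834% of all genes (Col1a2 1.58, limma adjusted p = 0.0168, and Col3a1 1.45, 0.0194). The 8 macrophage markers summed to 749 to 1007 in sham SFA and 1189 to 1379.7 in TAC SFA, all 8 higher with 0 called by limma and 5 at an unadjusted p under 0.05 (7.0% of all genes). Of the 10 cardiomyocyte markers 7 were negative, with a median of -0.19 against the members' -0.45. Summed, the 10 stood at 449670 to 453650 in sham SFA and lower, without overlap, at 383040 to 405520 in TAC SFA. In TAC hearts the fibroblast markers summed to 5012 to 5935 under SFA-EAA, with all 8 lower than under SFA. Of these, Col1a2 was called (-1.97, limma adjusted p = 0.0408), against 0.0365% of all genes called lower. Nppa, the atrial natriuretic peptide gene that pressure load is known to raise, rose by 3.66 on the log2 scale in TAC SFA (limma adjusted p = 0.00228). It belongs to the 5 atrial cardiomyocyte markers, which summed to 1133 to 2863 in sham SFA and 10439 to 21861 in TAC SFA. Another of these, Myl7, overlapped between the groups, at 621 and 35.8 in sham SFA and 11.8 and 322 in TAC SFA. Of the 8 smooth muscle and pericyte markers 3 were negative and 5 positive (median 0.38), and their sums overlapped, at 5547 and 6542.5 in sham SFA and 5336 and 5738 in TAC SFA. Limma called 1 of the 8, Abcc9, a channel subunit gene, which fell (log2 -0.64, adjusted p = 0.0307), against 0.414% of all genes called lower. The 8 endothelial markers summed to 3822 to 4004 in sham SFA and 3604 to 3766 in TAC SFA. The 5 red blood cell markers summed to 2431 to 2531 in sham SFA and 3137 to 3495 in TAC SFA. For the 6 adipocyte markers the sums were 2422 to 2664 and 1586.5 to 2577. No marker was at 0 in every library. The part of cell composition in the values of the 33 was not tested.

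Some members share sequence with copies elsewhere in the genome, and how reads that fit several places were counted, and whether strand was used, is not given in the sources used here. Besides Atp5g2, Atp5l and Cycs, the share of 50-base stretches found in other annotated genes was 53.0% for Cox7c, 50.5% for Atp5h, 50.3% for Atp5o, 43.4% for Uqcrb, 38.7% for Atp5f1, 32.0% for Cox5a, 25.9% for Cox5b, 24.8% for Uqcrc2 and 21.1% for Cox6c. Values of these genes may contain or lack reads of pseudogenes or overlapping genes. For Atp5o the other genes include a separate annotated entry of the same name. Uqcrfs1, Cyc1, Uqcrc1, Uqcrq, Uqcr10, Cox6b1, Atp5d, Atp5e, Atp5g3, Atp5s and Atp5sl share no such stretch.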

How the data were processed

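Polyadenylated left ventricular RNA of 8 libraries was sequenced, and the authors deposited 1 table of normalised signal for 49671 genes: read counts per gene normalised with edgeR, per the labels and the submitters' processing notes, which also name STAR 2.5 and GRCm38. The counting program, its strand and multi-mapping settings and the annotation were not given in the sources used here, and the raw counts and the depth in reads are unknown, so no count model was used. No column of per-sample values was left unused (0).

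The values were taken as log2(value + 1), after a filter that keeps 16432 genes with at least 1 in at least 2 libraries. The fold changes are on this scale and understate those of low genes. Limma 3.58.1 in R 4.3.3 (limma-trend, 1 mean per group over all 8 libraries, two-sided) tested 5 comparisons across all genes, with Benjamini-Hochberg adjustment within each and a threshold of 0.05. Fits and the GC correction were also run on simulated data, with a GC trend drawn from the same kind of loess curve that the correction subtracts. That run therefore cannot show how well the correction removes a trend of another shape. The correction subtracts, per library, a loess curve (span 0.3) of each gene's deviation from its mean on transcript GC content, fitted on 8032 genes with a mean of at least 50, with GC content known for 99.8% of genes tested. Transcripts, lengths and coding sequences come from GENCODE M21, and promoters from RefSeq (GRCm38.p6).

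The members and lists were chosen with earlier results of these data known. Values in every library are given for Uqcrc1, Uqcrfs1, Cyc1, Cycs, Cox5a, Cox5b, Atp5a1, Atp5b, Atp5g1, Atp5g2, Atp5g3, Atp5o and Atp5e, for each called member, and per comparison for the 3 members with the smallest p and those with the most positive and most negative difference. From the pathway lists, genes called as deposited and a panel of 8 are named, with further genes given as counts. Tmem70, Usmg5 and 2010107E04Rik were named after their values were seen. Alternatives were another pseudocount, other filters and scalings, library weights, corrections for GC content and length, the replicate block and leaving out libraries.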

Additional observations from a re-analysis of the deposited data

How the results depend on the processing

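Under every alternative run, all 33 members were negative in TAC against sham under SFA. Called members as deposited numbered 0 in each comparison, and numbers below are for TAC under SFA and for the diets in TAC, in that order, with the share of all genes called in the same direction in parentheses. They were 1 and 1 with a minimum value of 5 (0.953% and 0.2%), 18 and 7 after the GC correction (2.39% and 0.955%), and 5 and 3 after correction for GC and length (2.32% and 0.694%, medians -0.28 and 0.13). Library weights gave 12 (2.06%) and 0, and also called 5 higher in the diets in sham (1.16%). With a coding-GC correction, chosen after seeing the data, they were 6 and 1 (1.55% and 0.31%), and after the GC correction without both libraries high in Myl7 0 and 0 (0.0791% and 0.0122%). The cause of these shifts was not tested.

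Leaving out each library in turn gave 0 to 3 called as deposited in TAC under SFA (median -0.56 to -0.37), 0 under SFA-EAA (-0.30 to -0.055), 0 to 2 for the diets in sham (-0.019 to 0.035), 0 to 13 for the diets in TAC (0.14 to 0.43) and 0 in the interaction (0.13 to 0.35). The highest values, 3 in TAC under SFA and 2 in the diets in sham, came without either TAC SFA-EAA library (1.13%, and 2.0% to 2.2%). Together with the GC correction, a pairing of choices also made after seeing the data, this gave 0 to 24 (-0.54 to -0.34), 0 to 1 (-0.29 to -0.11), 0 to 1 (0.051 to 0.12), 0 to 12 (0.16 to 0.38) and 0 (0.11 to 0.29).

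Replicate 1 minus replicate 2 correlated at -0.32 to 0.06 between groups, over 8032 genes. These differences also carry each library's GC trend, so whether the numbers pair the libraries is not settled. With the replicate number as a block, 0 members were called as deposited, and 12 and 4 with the GC correction (1.88% and 0.554%). Of 3597 values of single genes under the alternatives, 3373 kept direction and side of the threshold, 98 passed it, and 126, in 25 genes, changed sign with 0 past the threshold in either of the fits compared. The value of Atp5d for the diets in TAC ranged from -1.10 to 0.30. With 2 libraries per group and unknown depth, differences near the SE of the noisier members could not be resolved.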

Other observations

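As deposited, shorter transcripts among the 33 had the more negative difference in TAC SFA. The log2 fold change correlated with log2 transcript length (Pearson r 0.51, Spearman rho 0.56, n = 33 genes that share the same 4 libraries), and this was much the same after the GC correction (0.48 and 0.53). After correction for GC and length together its sign turned (-0.40 and -0.39). Over all genes the length trend split these libraries, with a Spearman rho of -0.13 and -0.16 in sham SFA and 0.054 and 0.18 in TAC SFA, so the relation among the 33 and that trend cannot be told apart. With GC content the TAC difference under SFA had little relation (Pearson r -0.02 with coding GC), unlike the diet differences.

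The diet difference kept its relation to coding GC after the correction on coding GC itself, at a Pearson r of -0.51 in sham hearts. The 13 members under 50% coding GC then had a median of 0.17 and the 20 others of -0.019.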
